A study of Mus musculus with 2 samples.

Results

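The pyruvate dehydrogenase complex and the enzymes that switch it on and off were examined in the gastrocnemius, a mostly fast calf muscle of the mouse. The 10 genes were chosen by name as the kinases Pdk1, Pdk2, Pdk3 and Pdk4, the phosphatase genes Pdp1 and Pdpr, and the subunit genes Pdha1, Pdhb, Dlat and Pdhx. All 10 were found among the 34745 genes of the count table. RNA sequencing gave 1 library of genotype Cry2scko and 1 library of genotype Cry2flox/flox (Cry2flox), both from C57BL/6 mice aged 8 weeks. Cry2 encodes cryptochrome 2, a clock repressor, and a floxed allele has sites at which a recombinase such as Cre can cut out part of a gene. What scko stands for is not given in the labels, which name no Cre driver and give neither the hour of collection, the feeding state nor the number of animals behind a library. The title of the series speaks of satellite cells, the stem cells of muscle, which are a small share of the cells in whole muscle.

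Pyruvate dehydrogenase turns pyruvate, the end product of glycolysis, into acetyl-CoA inside mitochondria and so commits carbohydrate to oxidation. Kinases of the Pdk family phosphorylate its first enzyme and switch it off, and phosphatases remove the phosphate and switch it on again. In muscle, Pdk4 is known for its rise in fasting and during use of fatty acids, when glucose is spared.

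The Cry2scko library had 16423884 reads on genes and the Cry2flox library 18909433. Genes of the mitochondrial genome made up 24.6% of these reads in Cry2scko and 23.8% in Cry2flox. The targeted gene Cry2 had 133 reads in Cry2scko against 676 in Cry2flox, a log2 ratio of -2.16 (95% interval -2.44 to -1.89). The tissue label was checked against muscle markers, and the fast myosin gene Myh4 alone stood at 45667 CPM (reads scaled to library size) in Cry2scko and 50460 CPM in Cry2flox. Each genotype has a single library, so differences between animals could not be tested, no p-value is given and every ratio describes these libraries. Ratios are Cry2scko over Cry2flox, and their 95% intervals cover counting error only. Reads copied by PCR and not tagged by molecule are not independent, so even that error can be larger. In bulk tissue, fewer cells of a type and less RNA per cell cannot be told apart.

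The kinase gene Pdk4 was about 3-fold higher in the Cry2scko library, and none of the other 9 members passed a 2-fold rule. A gene was called where its mean level was at least 1 CPM, its ratio at least 2-fold and its interval excluded a ratio of 1. All 10 members reached the level, 1 was called higher, 0 were called lower and 9 were neither. Over all 12832 genes compared, 4.88% were called, 3.37% higher and 1.51% lower. The median log2 ratio of the 10 members was 0.00, beside a median of -0.00 and quartiles of -0.17 and 0.18 over all genes compared. A share of 1 in 10 members is not read as a property of the group.

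**Figure D1:**
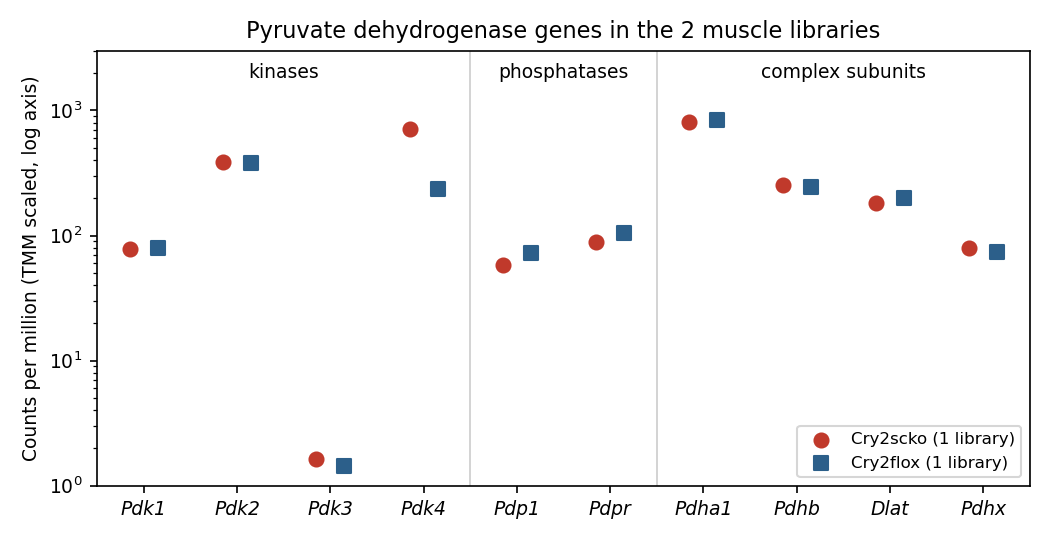
CPM of each member (log axis) in the Cry2scko library (circles) and the Cry2flox library (squares), 1 library each, grouped by role. Pdk4 stood at 704 CPM in Cry2scko against 236 CPM in Cry2flox, while the symbols of the other members lie close together.

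The promoters of Pdk4 and Pdk2 are shown because these are the most abundant kinase genes and differ in how they compare between the libraries. Each holds 250 bases before and 50 bases after the start site in RefSeq (GRCm38.p6), both on the minus strand, at chr6:5496229-5496528 for Pdk4 and at the upstream start of Pdk2, chr11:95041322-95041621. Capitals mark CACGTG (the E-box bound by clock activators) and CCAAT or its reverse ATTGG (the CCAAT box).
Pdk4: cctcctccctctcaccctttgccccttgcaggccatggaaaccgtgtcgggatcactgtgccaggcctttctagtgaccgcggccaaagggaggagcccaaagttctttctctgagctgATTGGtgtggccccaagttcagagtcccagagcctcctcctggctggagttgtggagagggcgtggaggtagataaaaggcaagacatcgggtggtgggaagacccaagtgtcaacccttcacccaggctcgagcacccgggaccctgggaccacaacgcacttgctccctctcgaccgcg
Pdk2: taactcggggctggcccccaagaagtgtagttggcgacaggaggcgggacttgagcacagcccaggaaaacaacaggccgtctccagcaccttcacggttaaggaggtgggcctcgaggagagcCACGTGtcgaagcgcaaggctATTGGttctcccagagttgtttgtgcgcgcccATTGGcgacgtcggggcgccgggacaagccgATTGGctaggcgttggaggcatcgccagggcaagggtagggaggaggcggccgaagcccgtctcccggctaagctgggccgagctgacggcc

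The Pdk4 window held 1 CCAAT box and no CACGTG, whereas the Pdk2 window held 1 CACGTG and 3 CCAAT boxes, all 3 on the reverse strand. RefSeq promoters were found for 9 of the 10 member symbols, in 11 windows, and CACGTG was in 2 of the 11, those of Pdk2 and Pdpr. Both strands were searched, and of 32817 promoters of this length 7.15% held CACGTG and 37.4% held CCAAT. The Pdk4 window also lacked AGGTCA (a nuclear receptor half-site, in 16.3% of promoters), the direct repeat DR1 of that half-site with 1 base between (0.0396%), GTAAACA (a FoxO site, 3.65%), the D-box letters TTATGTAA (0.935%) and TTACGTAA (0.119%), and the palindromic glucocorticoid element (0.00914%). Each of these was in 0 of the 11 member windows, so their absence does not set Pdk4 apart. Neither printed window held GGGCGG (the GC box, 35.6%) or TATAAA (the TATA box, 13.6%), and TATAAA was in 0 of the 11. These matches describe the letters of the windows alone. A DR1 match also counts as AGGTCA. The Pdk4 window was 60.7% G or C with 12 CpG dinucleotides, beside medians of 52.7% and 7 over all promoters.

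Among the kinases, Pdk4 (ENSMUSG00000019577, GRCm38 chromosome 6, 5483351 to 5496309, minus strand) encodes the isoform known from fasted muscle and heart. It had 11643 reads or 704 CPM in Cry2scko against 4434 reads or 236 CPM in Cry2flox. The log2 ratio was 1.58 (1.53 to 1.63), which is 2.98-fold higher with an interval of 2.88 to 3.09. Among the 950 genes with a mean of 100 CPM or more, 1.79% were called and 1.37% were called higher. Ranked by ratio among these 950, Pdk4 was number 4, after Synpo2, Kpna1 and Rragd. Among all 12832 genes compared it was number 128.

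**Figure D2:**
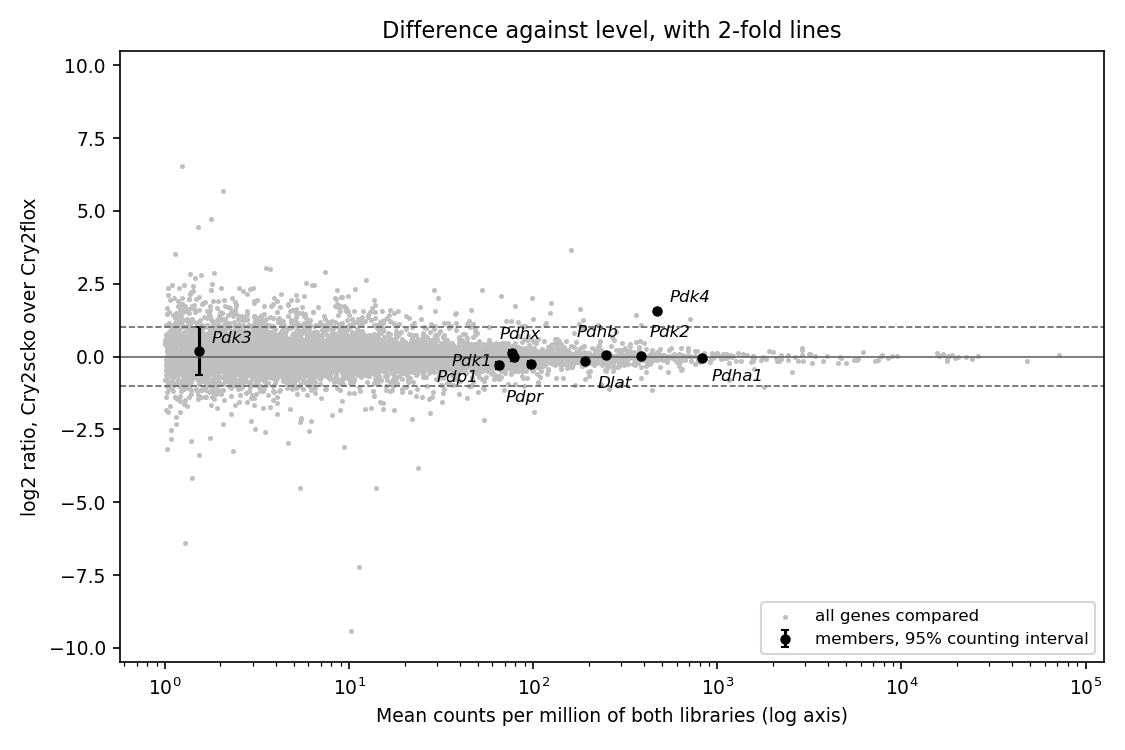
The log2 ratio of Cry2scko over Cry2flox against the mean CPM of both libraries (log axis) for all genes compared (grey) and for the 10 members (black, bars are 95% counting intervals). Dashed lines mark 2-fold; Pdk4 lies above the upper line at 1.58, and the points of the other members lie between the lines.

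Pdk2 (ENSMUSG00000038967, chromosome 11, 95026258 to 95041354, minus strand), the broadly expressed kinase isoform, was at nearly the same level in both libraries. It had 6413 reads or 388 CPM in Cry2scko against 7119 reads or 379 CPM in Cry2flox, a log2 ratio of 0.03 (-0.02 to 0.08). Pdk1 (ENSMUSG00000006494, chromosome 2, 71873224 to 71903858, plus strand), an isoform known to be induced by hypoxia, had 1288 reads or 77.9 CPM in Cry2scko against 1494 reads or 79.6 CPM in Cry2flox. Its log2 ratio of -0.03 (-0.14 to 0.08) also held a ratio of 1 in the interval. Pdk3 (ENSMUSG00000035232, chromosome X, 93764607 to 93832201, minus strand) was near the limit of what was compared, with 27 reads or 1.63 CPM in Cry2scko and 27 reads or 1.44 CPM in Cry2flox. Its log2 ratio of 0.18 had an interval of -0.64 to 1.01, the widest of the 10 members, which held a ratio of 1.

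The make-up of the kinase transcripts therefore differed between the libraries. Pdk4 took 60.1% of the reads of the 4 kinases in Cry2scko (95% Clopper-Pearson interval 59.4 to 60.8%) against 33.9% in Cry2flox (33.1 to 34.7%). Pdk2 took 33.1% in Cry2scko (32.4 to 33.8%) against 54.5% in Cry2flox (53.6 to 55.3%), so the order of the 2 genes was reversed. Levels of different genes are compared per length, with the FPKM values (fragments per kilobase of gene, scaled to library size) that the authors deposited. Pdk4 stood at 178 FPKM in Cry2scko and 58.9 FPKM in Cry2flox, and Pdk2 at 99.97 FPKM in Cry2scko and 96.4 FPKM in Cry2flox. The level of Pdk4 over that of Pdk2 was 1.78 in Cry2scko and 0.611 in Cry2flox. That ratio within a library does not depend on the scaling between libraries, and it was 2.91-fold higher in Cry2scko, a difference of log2 ratios of 1.54 (1.47 to 1.61, Woolf interval from the counts).

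The summed kinase level was 285 FPKM in Cry2scko and 163 FPKM in Cry2flox. In CPM the 4 kinases together were 475 higher in Cry2scko, and Pdk4 made up 98.5% of that difference. Without Pdk4 the sum of the other kinases was 467 CPM in Cry2scko and 460 CPM in Cry2flox, a log2 ratio of 0.02 (-0.02 to 0.07).

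**Figure D3:**
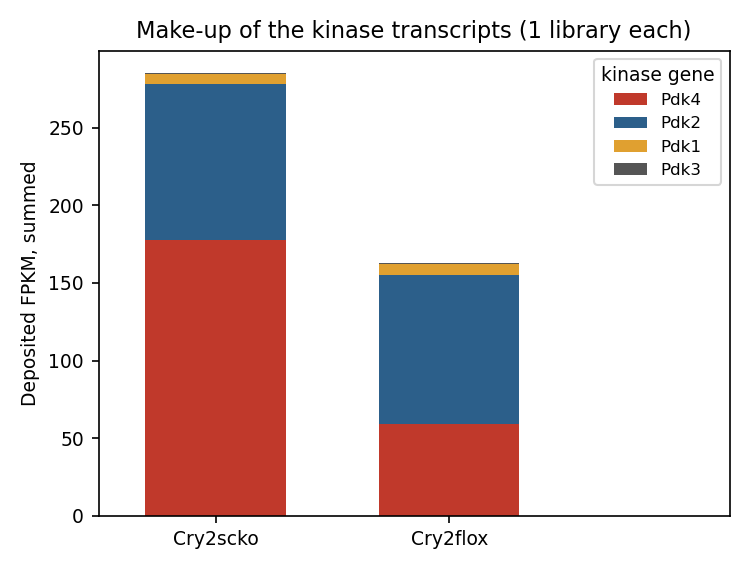
Deposited FPKM of the 4 kinase genes, stacked, in the Cry2scko and the Cry2flox library (1 library each). The bars reach 285 FPKM in Cry2scko and 163 FPKM in Cry2flox, and the Pdk4 segment is 178 FPKM in Cry2scko against 58.9 FPKM in Cry2flox.

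Both phosphatase genes were slightly lower in the Cry2scko library, opposite in direction to Pdk4 and short of 2-fold. Pdp1 (ENSMUSG00000049225, chromosome 4, 11958184 to 11966452, minus strand), the catalytic subunit of the calcium-stimulated phosphatase of muscle, had 967 reads or 58.5 CPM in Cry2scko against 1353 reads or 72.1 CPM in Cry2flox. Its log2 ratio was -0.30 (-0.42 to -0.18). Pdpr (ENSMUSG00000033624, chromosome 8, 111094630 to 111137074, plus strand), the regulatory subunit of that phosphatase, had 1455 reads or 87.97 CPM in Cry2scko against 1983 reads or 106 CPM in Cry2flox. At a log2 ratio of -0.26 (-0.36 to -0.17) it lay next to Pdp1, and the ratio of Pdp1 to Pdpr differed by a log2 of only -0.04 (-0.19 to 0.12). The spread between animals is not known here, so neither difference can be set against it. On the FPKM scale the 4 kinases summed to 43.7 times Pdp1 in Cry2scko and 20.5 times Pdp1 in Cry2flox. The size of these multiples depends on the gene length used. In Cry2flox the FPKM of Pdp1 was 0.496 times its CPM per kilobase of merged GENCODE M21 exons. The same figure was 0.875 for Pdk4 and 0.804 for Pdk2. Pdp2, the second catalytic phosphatase, was a small part of the set, with 55 reads in Cry2scko and 74 in Cry2flox.

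The subunit genes of the complex were close to equal in both libraries. Pdha1 (ENSMUSG00000031299, chromosome X, 160122209 to 160138413, minus strand) encodes the alpha chain of the first enzyme, the chain that the kinases phosphorylate. It was the member with the highest level in both libraries, 200 FPKM in Cry2scko and 203 FPKM in Cry2flox, from 13368 reads in Cry2scko and 15658 in Cry2flox. Its log2 ratio was -0.04 (-0.08 to -0.01). Pdhb (ENSMUSG00000021748, chromosome 14, 8165996 to 8173025, minus strand), the beta chain of the same enzyme, had 4166 reads or 252 CPM in Cry2scko against 4589 reads or 244 CPM in Cry2flox, a log2 ratio of 0.04 (-0.02 to 0.10).

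Dlat (ENSMUSG00000000168, chromosome 9, 50634633 to 50659780, minus strand) encodes the acetyltransferase that forms the core of the complex. It had 2995 reads or 181 CPM in Cry2scko against 3740 reads or 199 CPM in Cry2flox, a log2 ratio of -0.14 (-0.21 to -0.07). Pdhx (ENSMUSG00000010914, chromosome 2, 103021075 to 103073513, minus strand), the protein that anchors the third enzyme to that core, had 1315 reads or 79.5 CPM in Cry2scko against 1384 reads or 73.7 CPM in Cry2flox. Its log2 ratio was 0.11 (-0.00 to 0.22). On the FPKM scale the ratio of Dlat to Pdhx was 1.77 in Cry2scko and 2.10 in Cry2flox. The log2 difference was -0.25 (-0.38 to -0.12), the largest of the subunit pairs compared. Both genes lay within the quartiles over all genes compared, -0.17 and 0.18, and the spread between animals is not known. Summed over the 4 subunits, the level was 422 FPKM in Cry2scko and 420 FPKM in Cry2flox. The kinases without Pdk4 stood at 0.538 times Pdha1 in Cry2scko and 0.511 times in Cry2flox, whereas all 4 kinases stood at 1.43 times Pdha1 in Cry2scko and 0.801 times in Cry2flox.

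By deposited FPKM, the order of the members in Cry2scko was Pdha1, Pdk4, Pdhb, Pdk2, Dlat, Pdhx, Pdpr, Pdk1, Pdp1 and Pdk3, with 0.541 FPKM for Pdk3 at the low end. In Cry2flox it was Pdha1, Pdhb, Pdk2, Pdk4, Dlat, Pdhx, Pdpr, Pdp1, Pdk1 and Pdk3, with 0.470 FPKM for Pdk3. Pdk4 stood in place 2 in Cry2scko and in place 4 in Cry2flox, and the other members differed by at most 1 place. Whether neighbours in these orders differ beyond the spread between animals is not known. The places of Pdhb and of some other members depended on the gene length used. Per kilobase of the merged exons of GENCODE M21, Pdhb had 65.2 CPM in Cry2scko and 63.3 CPM in Cry2flox and stood in place 4 in both libraries, behind Pdha1, Pdk2 and Pdk4. In Cry2flox Pdk4 was just ahead of it at 67.3 CPM per kilobase. By that measure Pdk4 stood in place 2 in Cry2scko and in place 3 in Cry2flox. Pdk1 and Pdp1 changed places with each other in Cry2scko, as did Pdhx and Pdpr in Cry2flox. Pdhb also shares 1079 bases at 97.0% identity with the gene model Gm6123, so reads from that stretch may be assigned to either.

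Overlaps with other genes were looked up for all members, since the strand setting of the counts is not given. Pdha1 shares 603 exon bases on the opposite strand with Map3k15, which had 20 reads in Cry2scko and 10 in Cry2flox. Pdpr shares 169 exon bases with 9430091E24Rik on the opposite strand, which had 10 reads in Cry2scko and 15 in Cry2flox. The other 8 members share no exon base with another gene. The longest stretch of Pdk4 transcripts with at least 95% identity to another gene was 126 bases, beside 3511 merged exon bases. The 3 nearest protein-coding genes at 1 CPM or more on each side of Pdk4 on chromosome 6 were not called. Asb4, 50329 bases away, had 234 reads in Cry2scko and 183 in Cry2flox, a log2 ratio of 0.54 (0.25 to 0.82), and Pon2 was at -0.07 and Pon3 at 0.12. On the other side Sem1 was at 0.26, Sdhaf3 at -0.30 and Asns at -0.68 on 13 reads in Cry2scko and 24 in Cry2flox.

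Genes that complete or feed the complex held 0 calls in the 3 lists described next. With 4.88% of all genes called, lists of this size can hold 0 calls at the background share, so nothing is read from these counts. The third enzyme, lipoylation and Pdp2 were taken as 1 list, in which 0 of 6 measured genes were called and the median log2 ratio was -0.04. Dld, the third enzyme that pyruvate dehydrogenase shares with its relatives, had 4387 reads or 265 CPM in Cry2scko against 5230 reads or 279 CPM in Cry2flox, at -0.07 (-0.13 to -0.01). Lias, which makes the lipoyl group that Dlat carries, was at -0.00, Iba57 at -0.16 and Lipt1 at 0.10. Pdha2, the testis copy of Pdha1, had 0 reads in both libraries, which allows up to 0.181 CPM in Cry2scko and 0.160 CPM in Cry2flox.

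Pyruvate supply and its other fates had 0 of 12 genes called, a median of -0.14 and a range of -0.35 to 0.93, the upper end being the malic enzyme Me2 on 86 reads in Cry2scko and 51 in Cry2flox. Pkm, which makes pyruvate in glycolysis, was at -0.14 (-0.16 to -0.13), and Ldha, the muscle chain of lactate dehydrogenase, at -0.16 (-0.19 to -0.14). Citrate synthase (Cs), which takes up the acetyl-CoA, was at -0.02 and the alanine transaminase Gpt2 at -0.16. The mitochondrial pyruvate carrier has a pair of subunits, with Mpc1 at 555 reads in Cry2scko against 424 in Cry2flox, a log2 ratio of 0.57 (0.39 to 0.76), and Mpc2 at 2395 reads in Cry2scko against 2581 in Cry2flox, a log2 ratio of 0.08 (-0.01 to 0.16). Me2 and both carrier subunits were named after their values were seen. The other 2-oxo acid dehydrogenases, which are built like pyruvate dehydrogenase, had 0 of 9 genes called and a median of 0.01. Among them Bckdk, the kinase of the branched-chain enzyme and a relative of the Pdk family, had 2145 reads in Cry2scko against 2441 in Cry2flox, a log2 ratio of -0.00 (-0.09 to 0.08). Ogdh was at -0.01, Dlst at 0.12 and Bckdha at 0.01.

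Among factors known to act on Pdk4, 0 of 17 were called at the level of their own transcripts, beside 4.88% of all genes compared. A list of this size can hold 0 calls at that share, so nothing is read from the count. The median was -0.03, and the range ran from Pparg at -0.65 (-1.20 to -0.12) to Irs2 at 0.48 (0.27 to 0.69). The most abundant were Foxo4 at 0.29 (0.20 to 0.37), the retinoid receptor Rxra at -0.03, the insulin receptor substrate Irs1 at -0.23 and the glucocorticoid receptor Nr3c1 at 0.20. Foxo1, a FoxO factor that insulin restrains, had 419 reads in Cry2scko and 432 in Cry2flox, at 0.14 (-0.06 to 0.34), and Ppard, the fatty acid receptor of muscle, had 396 reads in Cry2scko and 451 in Cry2flox at -0.00 (-0.20 to 0.19). Foxo3, the other FoxO factor of the list, lay below 1, unlike Foxo4 and Foxo1, at -0.24 (-0.43 to -0.05). Foxo1, Foxo3, Ppard, Pparg and Irs2 were chosen after their values were seen.

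Genes known to respond to fasting or fatty acids had a median of 0.13, and 1 of the 24 at a mean of 1 CPM or more was called. That count is near the share of 4.88% over all genes compared and is not read as a property of the list. The gene called was Angptl4, an inhibitor of lipoprotein lipase, with 119 reads in Cry2scko against 56 in Cry2flox and a log2 ratio of 1.26 (0.80 to 1.76). The most abundant were Lpl, which releases fatty acids from lipoproteins, at 0.31 (0.27 to 0.35), the fatty acid carrier Fabp3 at 0.44 (0.39 to 0.49), and Hadha of beta-oxidation at 0.04 (-0.01 to 0.09). Ucp3, a mitochondrial protein known to follow Pdk4 in fasting, was at 0.42 (0.34 to 0.50), and Fbxo32, a ubiquitin ligase of fasted muscle, at 0.54 (0.46 to 0.62), both named after their values were seen. Trim63, also a ubiquitin ligase, was lower at 0.15 (0.07 to 0.22). Acadvl was at -0.01, Acadl at -0.05 and Cd36 at -0.01, each with an interval that held a ratio of 1. These genes too were named after their values were seen. The list thus held ratios on both sides of 1, and Acot1, below the level compared, had 5 reads in Cry2scko against 19 in Cry2flox.

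**Figure D4:**
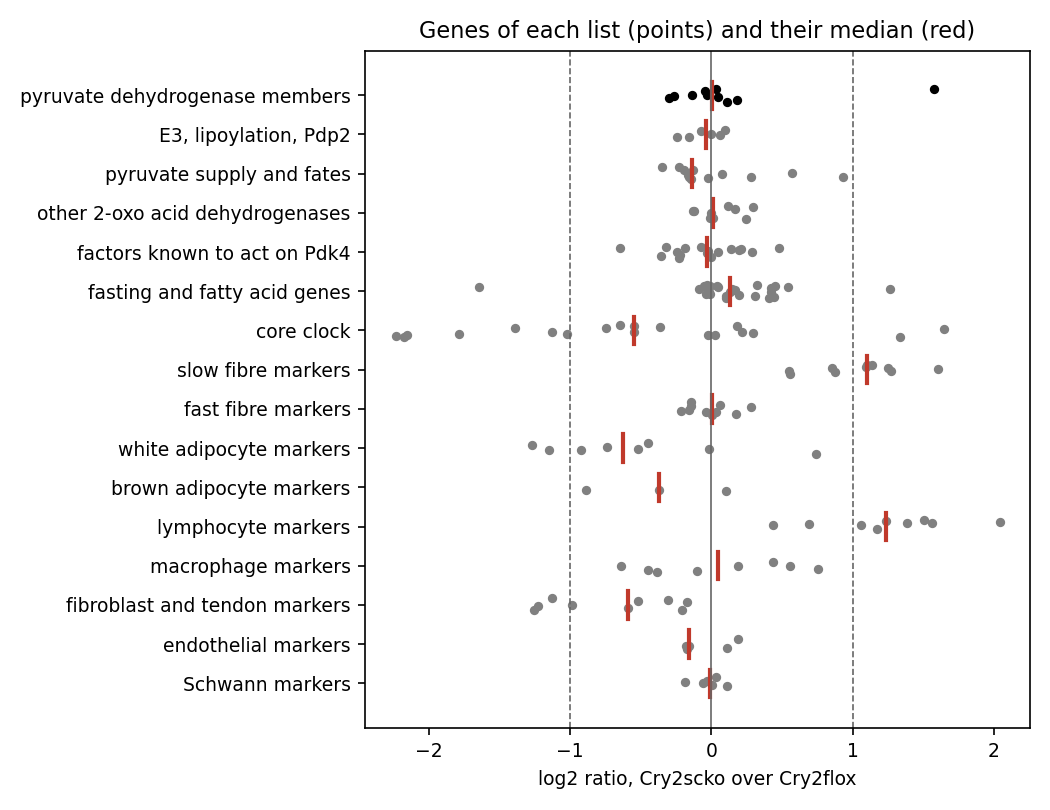
The log2 ratio of Cry2scko over Cry2flox of each gene (points) and the median (red) for the 10 members, 6 pathway lists and 9 marker lists, for genes with a mean of at least 0.5 CPM. Dashed lines mark 2-fold; the slow fibre and lymphocyte medians lie beyond it at 1.10 and 1.23, and Pdk4 at 1.58 stands apart from the other members.

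Other gene groups differed between the same libraries, and their part in the Pdk4 difference was not tested. Over all genes compared, 4.88% were called. Slow fibre markers had 6 of 10 called higher, and their summed level was 3036 CPM in Cry2scko and 1438 CPM in Cry2flox. Fast fibre markers had 0 of 11 called, with 134066 CPM in Cry2scko and 138855 CPM in Cry2flox. Of 19 core clock genes, 2 were called higher and 7 lower, with a median of -0.55. The higher genes were Arntl and Npas2 and the lower genes Per1, Per2, Per3, Cry2, Dbp, Hlf and Ciart. Cry2 is the targeted gene and enters both the count and the median. Its call belongs to the check of the labels and is not a result about the clock. The clock activator Arntl had 382 reads in Cry2scko and 172 in Cry2flox, and its target Dbp had 325 in Cry2scko and 1670 in Cry2flox.

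Lymphocyte markers had 7 of 9 called higher, with 150 CPM in Cry2scko and 61.6 CPM in Cry2flox in sum. White adipocyte markers had 1 of the 6 at 1 CPM or more called, lower, and the list had a median of -0.63. All 8 summed to 297 CPM in Cry2scko and 315 CPM in Cry2flox, of which Fabp4 alone gave 274 CPM in Cry2scko and 278 CPM in Cry2flox. Adipoq was at -1.27, Cidec at -0.92 and Cfd at -0.74, and no marker of that list was at 0 reads. Lep went the other way at 0.74, on 12 reads in Cry2scko and 8 in Cry2flox. The intervals of Fabp4, Plin1, Retn and Lep held a ratio of 1. The brown adipocyte markers Ucp1 and Elovl3 had 0 reads in both libraries, and 0 of the other 3 were called. Fibroblast and tendon markers had 3 of 9 called lower, with 1054 CPM in Cry2scko and 1695 CPM in Cry2flox. Macrophage (0 of 8), endothelial (0 of 5) and Schwann (0 of 6) markers had none called. With 4.88% of all genes called, lists of these sizes can hold 0 calls, so nothing is read from these counts.

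Among the 5 protein-coding genes at 100 CPM or more whose ratio was nearest to that of Pdk4 were Rragd, Cd74, Kpna1 and Myh7. Their log2 ratios were 1.62 for Rragd, 1.49 for Cd74, 1.85 for Kpna1 and 1.27 for Myh7, so Rragd was 0.05 away from Pdk4 and Myh7 0.30. Likeness here rests on 2 libraries and says only that the ratios are close.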

How the data were processed

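Total RNA of mouse gastrocnemius muscle was sequenced, 1 library per genotype. The submitters' processing notes name HISAT2 2.0.4, StringTie 1.3.0, CASAVA and GRCm38, and the read counter, annotation release and strand setting are not given in the sources used here. The authors deposited whole-number read counts per Ensembl gene, not normalised, and FPKM values per gene, per the file headers. Dividing counts by FPKM gave gene lengths that matched between the libraries, within 0.1 percent, in 100% of the 16284 genes read in both. The lengths themselves are not given.

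Names and positions came from GENCODE M21 (GRCm38), with 34267 of 34745 identifiers named. Counts were scaled by TMM factors (edgeR 4.0.16, R 4.3.3), 1.01 for Cry2scko and 0.993 for Cry2flox, fitted on the whole table. The log2 ratio was taken after 0.5 reads were added, with a Clopper-Pearson interval (exact, 95%) on the fraction of its reads found in Cry2scko. Differences between members have Woolf intervals. A gene with 0 reads was limited by a floor of 3 reads. List medians used genes from a mean of 0.5 CPM. Near-identical transcripts were sought with BLAST 2.17.0 (95% identity, 100 bases). Python 3.11.15, numpy 2.4.6, scipy 1.17.1, pandas 2.3.3 and matplotlib 3.10.9 were used. The procedure was tested on simulated counts that held counting error only and were scaled by total counts. That test cannot speak for the spread between animals.

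The members and lists were chosen with earlier results of these data known. Named genes were the 10 members, called list members and then the most abundant up to 4 per list, the 5 genes nearest to Pdk4 in ratio (1 of them is not reported here), and Cry2. Others were named after their values were seen, among them the marker and clock genes and the neighbours of Pdk4. The alternatives were total counts, DESeq2 1.42.0 size factors, totals without mitochondrial and the 20 most abundant genes, deposited FPKM with 0.1 added, 5 reads added, other level filters, a 1.5-fold threshold and shares weighted by length.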

Additional observations from a re-analysis of the deposited data

How the results depend on the processing

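The log2 ratio of Pdk4 ranged from 1.57 to 1.60 over the 5 alternatives of scaling, FPKM and added reads, and Pdk4 was called higher in each. The ratios of the other 9 members stayed within their counting intervals in the same 5 alternatives, and the median of all genes compared lay between -0.01 and 0.03. Whether an interval held a ratio of 1 depended on the scaling for Pdk2, Pdha1, Pdhb and Pdhx. With total counts that of Pdha1 held 1 (-0.058 to 0.009). Those of Pdk2 (0.004 to 0.102), Pdhb (0.003 to 0.125) and Pdhx (0.020 to 0.239) did not. The same was seen with FPKM and without mitochondrial and the most abundant genes. The counts over all genes, 432 higher and 194 lower, became 789 and 396 with no filter on low counts, 175 and 76 from a mean of 5 CPM, and 842 and 558 at a threshold of 1.5-fold, by construction. With deposited FPKM the counts were 311 higher and 116 lower, where adding 0.1 FPKM shrinks the ratios of low genes. With 5 reads added they were 365 higher and 147 lower. As a share of summed FPKM, Pdk4 made up 62.4% of the kinases in Cry2scko and 36.2% in Cry2flox. Per kilobase of merged exons, an alternative chosen after seeing the data, it was 60.1% in Cry2scko and 34.0% in Cry2flox. The fast fibre median of 0.00 was 0.021 with total counts and with FPKM and 0.029 without mitochondrial and the most abundant genes. The fibroblast and tendon median of -0.59 was -0.79 from a mean of 5 CPM, because 8 genes enter. No replicate could be left out with 1 library per genotype. No paired analysis was possible because each genotype has 1 library. Among the 10 members the counting interval was widest for Pdk3, with 27 reads in each library.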
